A study of Mus musculus with 10 samples.

Results

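Transcripts of 32 hypoxia-inducible genes that act outside glycolysis were followed in whole YUMMER1.7 tumors grown in Siah2 knockout or WT mice. The genes were taken from the table by name, with no measured value in the rule, and all 32 were measured among the 12926 genes of the table with a value above 0 (24421 genes listed). The melanoma line YUMMER1.7 comes from C57BL/6 mice. Its engineered changes include Braf V600E/+ and Cdkn2a-/-, and it was exposed to ultraviolet light to raise its mutation load. The same 100000 cells were injected under the skin of the flank of Siah2-/- mice (5 tumors) or WT mice (5 tumors), and tumors were removed at day 10. The knockout therefore concerns the host, in every cell of the mouse, and not the injected cells. The study describes all its mice as young males of C57BL/6 background. It gives their ages as ranges in weeks, none of them for this experiment alone. The strain field of the labels counts up by 1 from sample to sample (C57Bl6, C57Bl7 and so on) and was not used.

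Cells sense oxygen through the alpha subunits of the hypoxia-inducible factors (HIF). Prolyl hydroxylases of the Egln (PHD) family use oxygen to mark these subunits, the Vhl protein binds the marked form, and it is degraded. When oxygen is short, the subunits persist, pair with Arnt and bind a short DNA element in their target genes. Siah2 is a ubiquitin ligase known to send the hydroxylases Egln2 and Egln3 for degradation. HIF targets outside glycolysis serve mitophagy, lipid storage, protein folding in the endoplasmic reticulum, collagen modification, pH control and signalling to vessels. Several of them also feed back on HIF itself.

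Each value below is a normalized score, the read count of a gene after scaling between libraries by the authors. Scores of a library summed to between 15.61 and 16.5 M in KO-labelled tumors and between 15.41 and 15.53 M in WT tumors. Siah2 (chr3:58674938-58692400, mm10) had 573, 739, 747, 490 and 610 in the tumors labelled knockout, in the order of columns KO1 to KO5, against 391, 428, 407, 393 and 408 in WT2 to WT6. The transcript was thus higher in every KO-labelled tumor (log2 difference 0.62 ± 0.11 SE, adjusted p = 0.00104, limma). The injected cells were not knocked out and can add Siah2 reads in both groups. The score of a whole tumor therefore cannot show whether the host cells lack the transcript. The sources used here do not say which part of the gene was removed, so every direction below rests on the labels. The libraries came from whole tumors, in which fewer cells of a type and less RNA per cell cannot be told apart. Of 14 melanocyte and melanoma markers, 9 (among them Sox10, Pmel, Mlana, Tyr, Tyrp1 and Dct) were listed at 0 in every tumor. Genes that every cell uses can also be listed at 0 in this table, so a 0 was not read as absence.

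Of the 32 genes, 13 were higher in KO-labelled tumors at an adjusted p under 0.05 (40.6%) and 1 was lower (3.12%). Among all 12926 genes, 17.5% were higher and 18.2% were lower. The other 18 of the 32 did not pass the test, 8 of them with a positive and 10 with a negative difference. The 13 higher genes were Hilpda, Stc1, Ndrg1, Ero1l, Rab20, Bnip3, Ak4, Ankrd37, Stc2, Adm, Fam162a, Higd1a and P4ha1, and the lower one was Narf. In 5 genes every KO-labelled tumor was above every WT tumor (11.9% of all genes), and in 1 gene every KO-labelled tumor was below (12.9% of all genes). The median log2 difference was 0.21 over the 32 genes and -0.00 over all measured genes. At an unadjusted p under 0.05, without regard to direction, 17 of the 32 genes passed, against 45.6% of all genes (35.6% after adjustment). The study took genes into pathways at a p below 0.01 from edgeR, not said to be adjusted, and a change above 1 on the log2 scale. The same cutoffs were set here on the unadjusted limma p and the difference of log2(score + 1). Hilpda, Stc1 and Ndrg1 met both cutoffs upward, as did 2.65% of all genes, and none of the 32 met them downward, as did 3.34% of all genes.

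**Figure D1:**
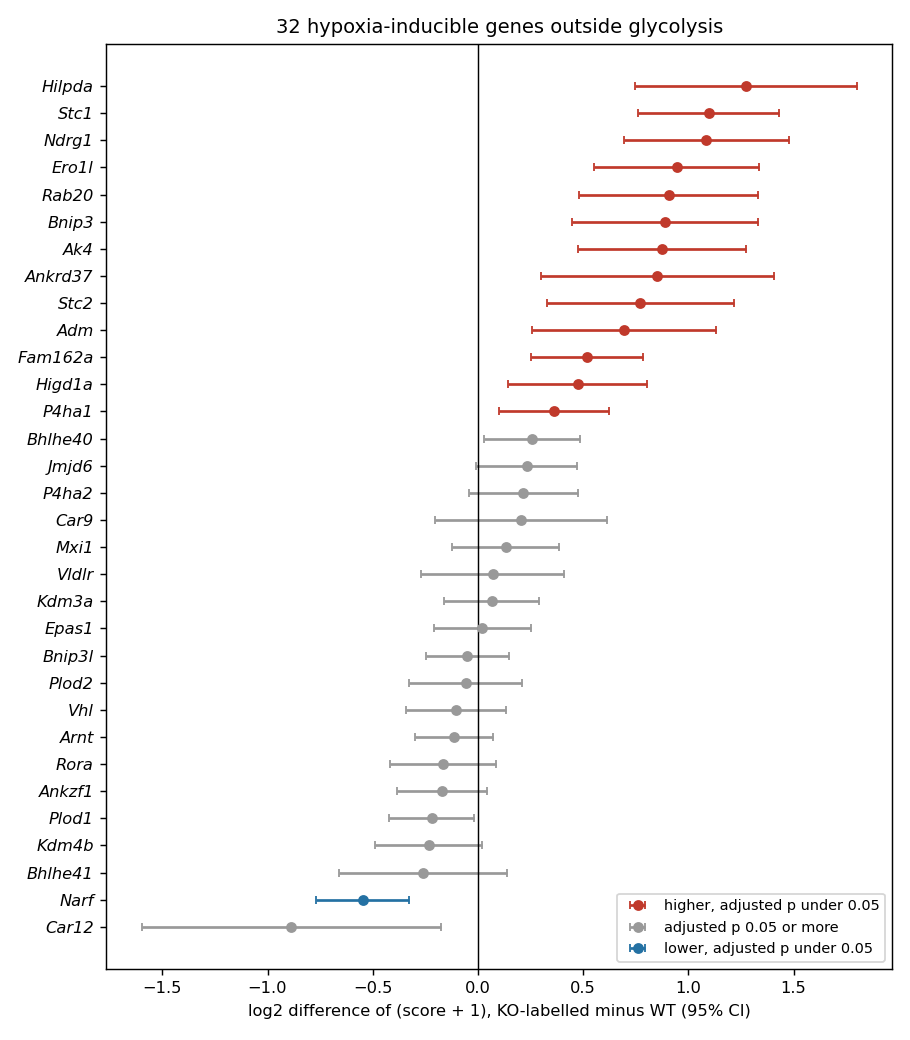
Log2 difference of (score + 1), KO-labelled minus WT tumors, for each of the 32 genes, with the 95% confidence interval of the limma fit (n = 5 tumors each). Red points are the 13 higher genes, the blue point is Narf, and grey points are the 18 genes that did not pass the test, of which Car12 had the most negative difference (-0.89) and the widest interval.

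HIF binds a core element of 5 letters, ACGTG or GCGTG. To show where these letters stand in the genes that moved, the promoters were read from 250 bases before to 50 bases after the RefSeq start site (GRCm38.p6). An entry was found for 25 of the 32 genes. The 2 motifs were searched on both strands, so that they also appear as CACGT and CACGC, overlapping matches were merged, and ACGTG also lies inside the E-box CACGTG, which other factors bind. Stretches of 6 genes that were higher in KO-labelled tumors are printed below, with the matched letters in capitals. They are examples picked by hand, each with at least 2 matches in the printed stretch. Other genes also had 2 matches close together. Among these were Stc2, P4ha1 and Hilpda, which were higher, and P4ha2 and Rora, which did not pass the test.
Bnip3, chr7:138909597-138909636, minus strand: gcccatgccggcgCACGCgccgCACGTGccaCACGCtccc
Fam162a, chr16:36071597-36071651, minus strand: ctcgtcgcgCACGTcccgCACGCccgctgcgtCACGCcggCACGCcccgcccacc
Ero1l, chr14:45318631-45318660, minus strand: GCGTGgacagaggcgcgcgccgctgCACGT
Rab20, chr8:11478693-11478720, minus strand: aggggGCGTGgggtggGCGTGgcggccg
Ak4, chr4:101419205-101419264, plus strand: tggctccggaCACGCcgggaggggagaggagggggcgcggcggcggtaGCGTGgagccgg
Adm, chr7:110627557-110627616, plus strand: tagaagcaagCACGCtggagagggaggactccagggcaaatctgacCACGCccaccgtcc

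The stretch of Bnip3 ran from 130 to 91 bases before its start site and held 3 matches, of which the middle one is an E-box. Fam162a had the most matches of the 25 genes, 6 in its window, and 4 of them stand in the printed stretch. Of the 28 printed bases of Rab20, 18 lie in exons annotated in GENCODE. The printed stretch of Ero1l lies before the RefSeq start site but inside the span of the gene in GENCODE, in no annotated exon. All 11 higher genes with an entry had at least 2 matches in their window (100%). Stc1 and Ndrg1, also higher, had no entry. Among the 13 genes with an entry that did not pass the test, 10 had a match (76.9%) and 5 had at least 2 (38.5%), and Narf had 1. Of all measured genes with an entry, 66.5% had a match and 33.6% had at least 2. For a gene with several windows, the window with the most matches was taken. A match is a description of the letters, not a bound site, and the genes without a match in this window (Car12, Vhl and Vldlr) may carry one elsewhere.

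**Figure D2:**
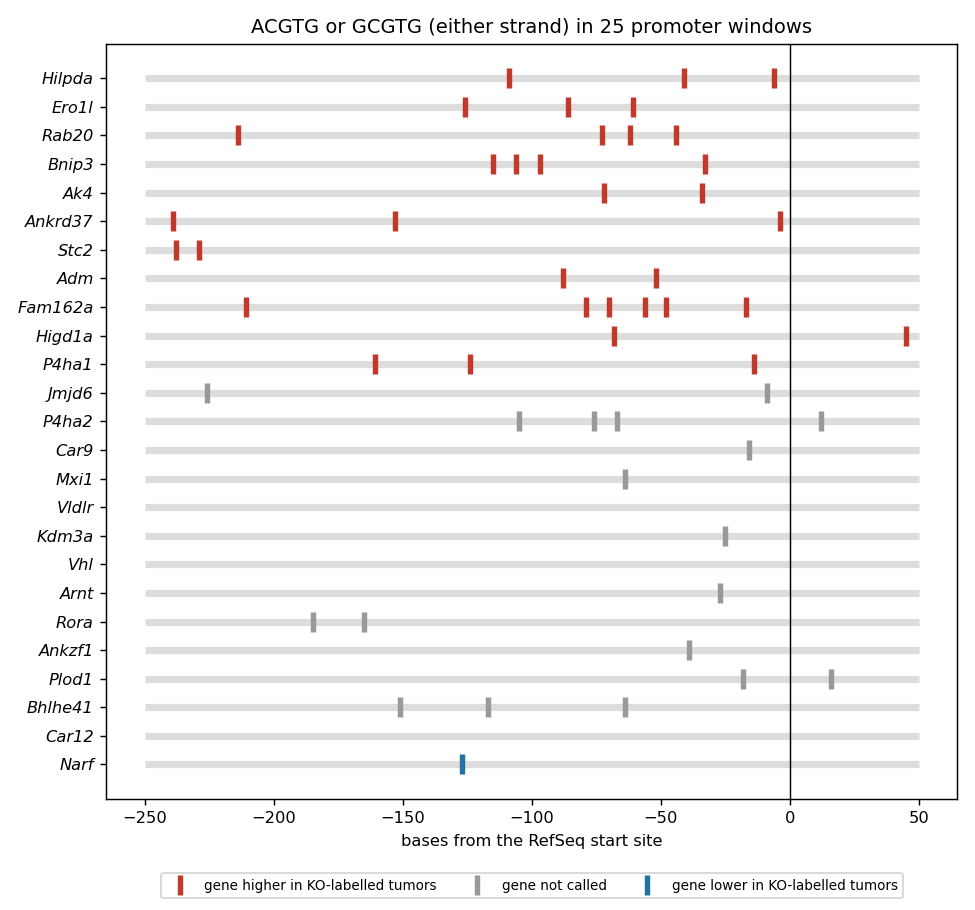
Position of each ACGTG or GCGTG match, on either strand, in the promoter windows of the 25 genes with a RefSeq entry, from 250 bases before to 50 after the start site (vertical line). Red marks are genes higher in KO-labelled tumors, grey marks genes that did not pass the test and the blue mark is Narf. All 11 red genes have at least 2 marks.

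Among the secreted factors, all 3 genes were higher in KO-labelled tumors, beside 17.5% of all genes. Here and below, the roles only sort the list for description. Stc1 (chr14:69029238-69041804), a glycoprotein hormone, had scores of 1176, 1170, 1103, 817 and 1314 in KO1 to KO5, against 663, 398, 471, 632 and 460 in WT2 to WT6. The lowest KO-labelled tumor, KO4, was above the highest WT tumor, WT2. The mean was 1116 ± 184 in KO-labelled and 525 ± 116 in WT tumors (SD, n = 5 each), a 2.14-fold difference (log2 1.10 ± 0.16 SE, adjusted p = 0.000205, limma). Its relative Stc2 (chr11:31357307-31370074) had 152, 108, 154, 70 and 87 in KO-labelled tumors, against 59, 63, 61, 72 and 63 in WT tumors. WT tumors lay within a narrow band, while KO1 and KO3 stood above the other KO-labelled tumors and KO4 fell below WT5. The log2 difference of Stc2 was 0.77 ± 0.21 SE (adjusted p = 0.0111, limma). Adm (chr7:110627661-110629820), which encodes the vasodilator peptide adrenomedullin, had 109, 116, 144, 82 and 114 in KO-labelled tumors, against 79, 74, 47, 97 and 56 in WT tumors. Only KO4 overlapped, lying under WT5 (log2 difference 0.69 ± 0.20 SE, adjusted p = 0.0182, limma).

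Of the 5 genes whose products act at mitochondria, 4 were higher, beside 17.5% of all genes. Bnip3 (chr7:138890836-138909519), a receptor that sends mitochondria to autophagy, had scores of 1421, 2242, 1750, 1269 and 1065 in KO-labelled tumors, against 973, 851, 733, 1039 and 545 in WT tumors. The groups did not overlap, although KO5 was close to WT5 (log2 difference 0.89 ± 0.20 SE, 1.85-fold, adjusted p = 0.00475, limma). Its relative Bnip3l, a mitophagy receptor too, had 1398, 1730, 1331, 1332 and 1282 in KO-labelled tumors, against 1590, 1497, 1406, 1519 and 1288 in WT tumors. Apart from KO2, the KO-labelled tumors lay below or among the WT tumors, and the difference was -0.05 (95% interval -0.25 to 0.15, adjusted p = 0.694, limma).

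Ak4 (chr4:101419277-101466995), an adenylate kinase of the mitochondrial matrix, had 441, 593, 379, 288 and 397 in KO-labelled tumors, against 243, 200, 244, 282 and 162 in WT tumors. KO4 stood just above WT5 and the groups did not overlap (log2 difference 0.87 ± 0.19 SE, adjusted p = 0.00294, limma). Fam162a (chr16:36043761-36071594), a mitochondrial protein, had 1312, 1612, 1737, 1327 and 1222 in KO-labelled tumors, against 1066, 999, 862, 1251 and 863 in WT tumors. Only KO5 overlapped, lying below WT5 (log2 difference 0.52 ± 0.12 SE, adjusted p = 0.00595, limma). Higd1a (chr9:121848563-121858362), a small protein of the inner mitochondrial membrane, had 511, 727, 713, 609 and 418 in KO-labelled tumors, against 434, 423, 371, 520 and 366 in WT tumors. KO1 and KO5 lay below WT5, and the smaller difference of 0.47 ± 0.15 SE passed the test (adjusted p = 0.0283, limma). It no longer passed without WT3 (adjusted p = 0.0532), WT4 (0.0704), WT6 (0.0703), KO2 (0.0688), KO3 (0.0729) or KO4 (0.0530), with differences between 0.40 and 0.48.

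Of the 4 genes of lipid handling and membrane traffic, 3 were higher, beside 17.5% of all genes. Hilpda (chr6:29272488-29275446), a protein of lipid droplets that blocks the release of fatty acids, showed the highest log2 difference of the 32 genes. Its scores were 365, 592, 728, 540 and 269 in KO-labelled tumors, against 229, 201, 157, 251 and 150 in WT tumors. KO3 was the highest and KO5 the lowest of the KO-labelled tumors, and KO5 was still above WT5. The mean was 499 ± 183 in KO-labelled and 198 ± 44.1 in WT tumors (SD, n = 5 each), a 2.42-fold difference (log2 1.27 ± 0.24 SE, adjusted p = 0.00152, limma).

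Ndrg1 (chr15:66929318-66969640), a cytoplasmic protein induced by several stresses, had 4245, 4585, 4064, 2698 and 2538 in KO-labelled tumors, against 2030, 1600, 1610, 1964 and 1227 in WT tumors. KO4 and KO5 formed a lower pair among the KO-labelled tumors, and both stayed above every WT tumor (log2 difference 1.08 ± 0.18 SE, 2.12-fold, adjusted p = 0.000631, limma). Rab20 (chr8:11453518-11478710), a small GTPase of endosomes and phagosomes, had 326, 206, 390, 325 and 343 in KO-labelled tumors, against 198, 106, 172, 167 and 206 in WT tumors. KO2 equalled WT6, and the other KO-labelled tumors were above all WT tumors (log2 difference 0.91 ± 0.20 SE, adjusted p = 0.00338, limma). Rab20 was the only one of the 13 higher genes in which KO2 was the lowest KO-labelled tumor.

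Vldlr, a lipoprotein receptor that takes up lipid, had 2917, 2214, 2461, 1367 and 1917 in KO-labelled tumors, against 2032, 2016, 2018, 2125 and 1856 in WT tumors. KO1 to KO3 were above every WT tumor and KO4 was below every one, so that the coefficient of variation was 26.7% in KO-labelled and 4.82% in WT tumors. The difference was 0.07 (95% interval -0.27 to 0.41, adjusted p = 0.752, limma). Without KO4 and KO5 it was 0.32 (adjusted p = 0.0187), the only 1 of the 17 alternative fits in which Vldlr passed.

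In protein folding and collagen modification, Ero1l and P4ha1 were higher, while P4ha2, Plod1 and Plod2 did not pass the test. Ero1l (chr14:45283087-45318771), the oxidase that renews protein disulphide isomerase in the endoplasmic reticulum, had 3796, 3703, 3096, 1817 and 3047 in KO-labelled tumors, against 1743, 1362, 1489, 1970 and 1310 in WT tumors. Only KO4 fell within the range of WT tumors (log2 difference 0.94 ± 0.18 SE, 1.92-fold, adjusted p = 0.00163, limma). P4ha1 (chr10:59323296-59373304) encodes a catalytic subunit of collagen prolyl 4-hydroxylase, and had 5283, 6406, 5037, 3723 and 4737 in KO-labelled tumors, against 4131, 3585, 3781, 4294 and 3564 in WT tumors. KO4 lay among the WT tumors and the other KO-labelled tumors above them, with a log2 difference of 0.36 ± 0.12 SE (adjusted p = 0.0337, limma).

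P4ha1 passed in 9 of the 17 alternative fits, fewer than the other higher genes. It did not pass without WT3 (adjusted p = 0.0786), WT4 (0.0687), WT6 (0.0783), KO1 (0.0572), KO2 (0.0695) or KO3 (0.0635), nor with equal library totals (0.0614) or without a mean-variance trend (0.0519), with differences of 0.27 to 0.36 in these fits. P4ha2, the other catalytic subunit on the list, had 939, 1291, 956, 849 and 1061 in KO-labelled tumors, against 938, 808, 855, 1036 and 734 in WT tumors. KO2 was the highest tumor and the groups overlapped (log2 difference 0.22, 95% interval -0.04 to 0.48, adjusted p = 0.177, limma). The lysyl hydroxylase Plod2 differed by -0.06 (95% interval -0.33 to 0.21, adjusted p = 0.740). Plod1, the other lysyl hydroxylase, had 4851, 4580, 4157, 3395 and 4653 in KO-labelled tumors, against 5275, 5068, 4823, 5185 and 4676 in WT tumors. KO1 alone was within the WT range, and the difference of -0.22 did not pass (adjusted p = 0.0862, limma). It passed with equal library totals (-0.28, adjusted p = 0.0385) and without KO1 (-0.26, adjusted p = 0.0450). These were 2 of the 17 alternative fits, and in the others the adjusted p reached 0.170 (without KO4 and KO5, limma).

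**Figure D3:**
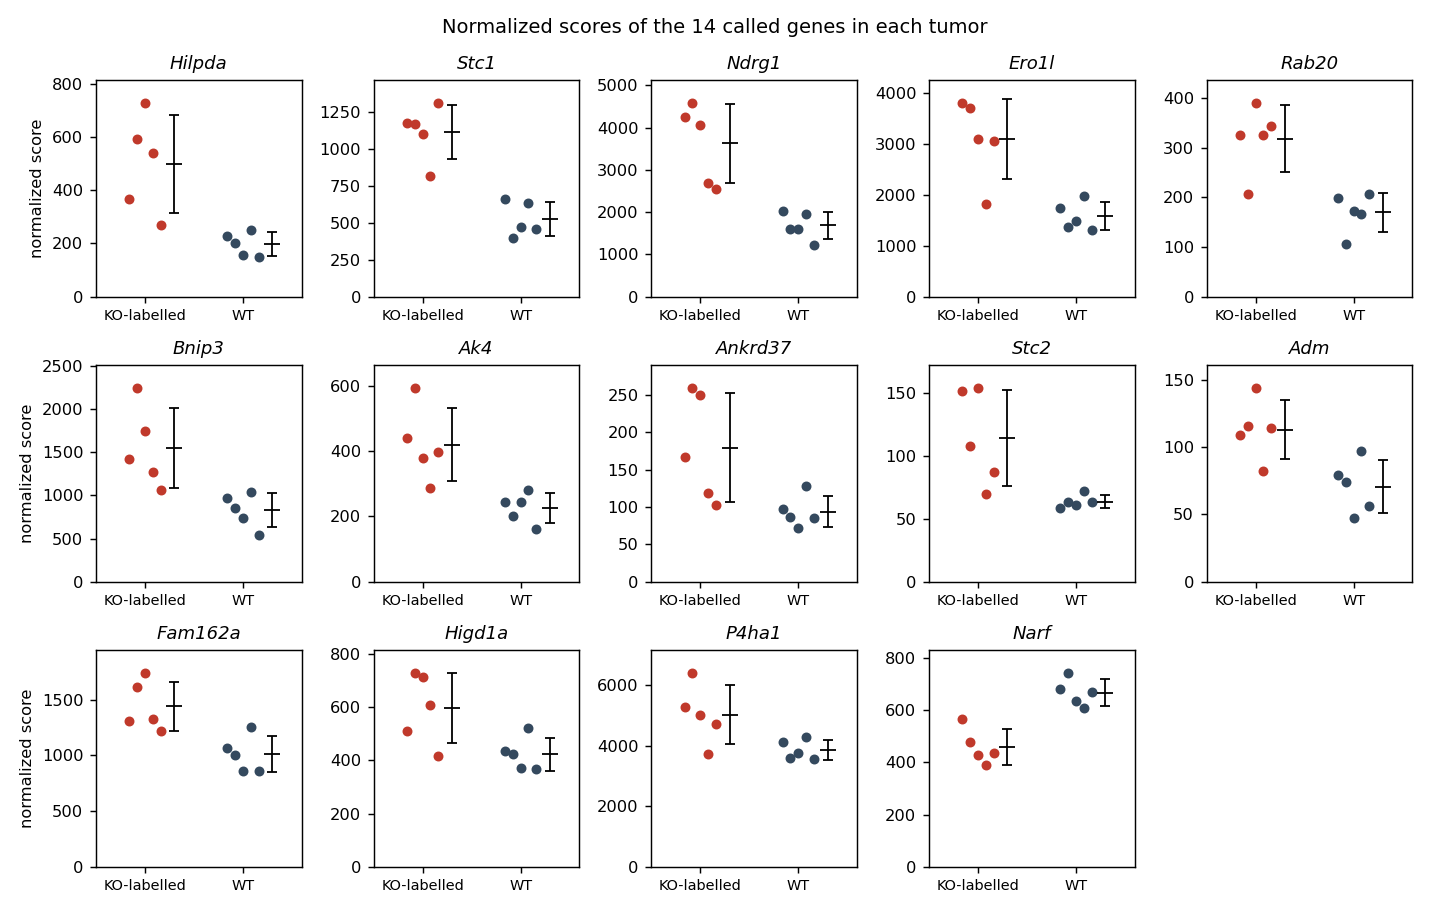
Normalized scores of the 14 genes that passed the test, in KO-labelled tumors (red, left) and WT tumors (dark, right), 1 point a tumor, with the mean and SD beside the points (n = 5 each). Each axis starts at 0. In Hilpda, Stc1, Ndrg1, Bnip3 and Ak4 all red points are above all dark ones, and in Narf all are below.

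The carbonic anhydrases Car9 and Car12, which control pH at the cell surface, did not pass the test. Car9 had 250, 233, 247, 198 and 319 in KO-labelled tumors, against 246, 212, 172, 324 and 153 in WT tumors. The ranges lay over each other, and the difference was 0.21 with a wide interval (95% interval -0.20 to 0.61, adjusted p = 0.418, limma). Car12 had low scores, with 16, 11, 13, 22 and 38 in KO-labelled tumors, against 39, 36, 52, 31 and 21 in WT tumors. KO1 to KO3 were below every WT tumor, whereas KO5 lay among the WT tumors (log2 difference -0.89 ± 0.33 SE, adjusted p = 0.0512, limma). The difference passed with equal library totals (-0.94, adjusted p = 0.0436), without WT6 (-1.06, adjusted p = 0.0318), without KO5 (-1.14, adjusted p = 0.00752), and without KO4 and KO5 together (-1.32, adjusted p = 0.00537). These were 4 of the 16 alternative fits without a block that held Car12. In the others the adjusted p reached 0.128 (without WT4, difference -0.74, limma).

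The genes of the oxygen-sensing machinery on the list did not pass the test. Epas1, which encodes the subunit HIF-2 alpha, had 587, 452, 388, 499 and 500 in KO-labelled tumors, against 457, 533, 466, 439 and 478 in WT tumors, and differed by 0.02 (95% interval -0.21 to 0.25, adjusted p = 0.890, limma). Arnt, the partner of the alpha subunits, differed by -0.11 (95% interval -0.30 to 0.07, adjusted p = 0.323). Vhl differed by -0.10 (95% interval -0.34 to 0.13, adjusted p = 0.480). These intervals leave room for small differences in either direction, so an equal level was not shown.

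Among the transcription regulators, Bhlhe40, a repressor of the basic helix-loop-helix family, had 1624, 1754, 2020, 1470 and 1360 in KO-labelled tumors, against 1421, 1405, 1420, 1440 and 1158 in WT tumors. Only KO5 overlapped with WT tumors (log2 difference 0.26, adjusted p = 0.0769, limma), and the difference passed without KO5 (0.32, adjusted p = 0.0232) and without KO4 and KO5 (0.39, adjusted p = 0.0101). These were 2 of the 17 alternative fits without a block, and in the others the adjusted p reached 0.184 (without WT6, limma). Its relative Bhlhe41 differed by -0.26 (95% interval -0.66 to 0.14, adjusted p = 0.291). Mxi1, which competes with Myc for the partner Max, differed by 0.13 (adjusted p = 0.401), and by 0.30 without KO4 and KO5 (adjusted p = 0.0345). That was the only 1 of the 17 alternative fits in which Mxi1 passed. The nuclear receptor gene Rora differed by -0.17 (adjusted p = 0.289).

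The oxygen-dependent enzymes of the nucleus did not pass the test either. The lysyl hydroxylase Jmjd6, which acts on splicing factors, had 1066, 1648, 1352, 1062 and 1210 in KO-labelled tumors, against 1107, 1015, 1065, 1080 and 1060 in WT tumors. KO1 and KO4 lay within the narrow WT range and the others above it (log2 difference 0.23, 95% interval -0.01 to 0.47, adjusted p = 0.119, limma). The histone demethylases Kdm3a and Kdm4b differed by 0.07 (adjusted p = 0.654) and -0.23 (adjusted p = 0.140).

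Of the last 3 genes, 1 was higher and 1 lower, beside 17.5% and 18.2% of all genes. Ankrd37 (chr8:45996902-46005707), an ankyrin repeat protein, had 167, 259, 250, 118 and 102 in KO-labelled tumors, against 97, 87, 72, 128 and 85 in WT tumors. KO1 to KO3 were above every WT tumor, and KO4 and KO5 were below WT5 (log2 difference 0.85 ± 0.26 SE, adjusted p = 0.0205, limma). It no longer passed without WT4 (0.77, adjusted p = 0.0539), KO2 (0.70, adjusted p = 0.0509) or KO3 (0.71, adjusted p = 0.0545). Narf (chr11:121237253-121255856), a nuclear protein that binds prelamin A, was the only gene of the 32 called lower. It had 567, 477, 427, 390 and 437 in KO-labelled tumors, against 683, 742, 636, 607 and 671 in WT tumors, with no overlap (log2 difference -0.55 ± 0.10 SE, adjusted p = 0.00133, limma). Ankzf1, which releases stalled chains from ribosomes, differed by -0.17 (adjusted p = 0.198).

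Whether the strand of the reads was used in counting is not stated in the study's methods or labels. In 15 of the 32 genes, exons overlap those of a gene on the opposite strand, among them 7 of the 13 higher genes. The overlap was 683 of 3040 exon bases in Higd1a, 504 of 2265 in Bnip3, 556 of 6596 in Ndrg1, 229 of 4197 in Stc1 and 168 of 850 in Fam162a. It was 406 of 1539 in Ankrd37, shared with Ufsp2 and Lrp2bp, and 356 of 1392 in Rab20. Hilpda, Ero1l, Ak4, Stc2, Adm, P4ha1 and Narf had none. A pseudogene named after Bnip3l and one named after Vhl are annotated, and reads of the 2 genes could be split with them.

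The tumors of a group differed from each other in the 13 higher genes. KO2 was the highest KO-labelled tumor in 6 of them and KO3 in 5, while KO4 and KO5 were the lowest in 6 each. Among all genes, each KO-labelled tumor was the highest in 17.5 to 21.1% and the lowest in 15.3 to 23%. In WT tumors, WT5 was the highest in 10 of the 13 and WT6 the lowest in 7. The median log2 ratio of the 13 genes to the WT mean was 0.88 in KO1, 1.16 in KO2, 1.07 in KO3, 0.40 in KO4 and 0.45 in KO5. It ran between -0.22 in WT6 and 0.31 in WT5, so that the lowest KO-labelled tumor lay close to the highest WT tumor. These medians describe genes already chosen as higher and carry no test. KO4 and KO5 are also the columns whose replicate numbers could not be tied to a title. Without both, 16 of the 32 genes were higher and 2 were lower, beside 2186 higher and 2263 lower of all genes. The median log2 difference of the 32 genes was then 0.31.

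**Figure D4:**
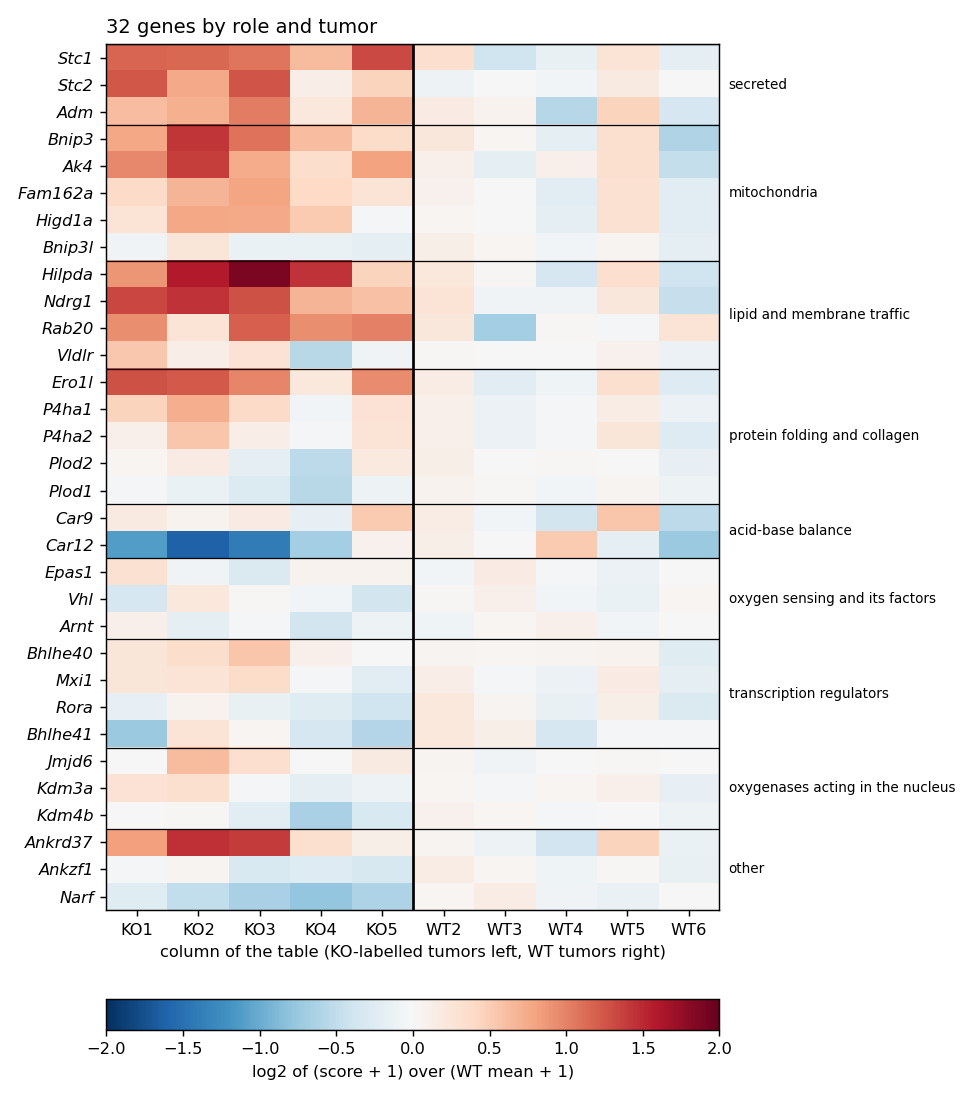
Log2 of (score + 1) over (WT mean + 1) for the 32 genes, grouped by role, in KO-labelled tumors (left of the line) and WT tumors (right). Red is above and blue below the WT mean. The red block of the 13 higher genes is palest in columns KO4 and KO5, whose medians are 0.40 and 0.45, and Car12 is deepest blue in KO1 to KO3.

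Related or partner genes were then compared within each tumor, by the log2 ratio of their scores, in 8 pairs. The pairs were chosen with earlier results of these data known, so their p-values are descriptive and not independent support. The level of such a ratio depends on the lengths of both genes, so only its difference between groups is read. Bnip3 over Bnip3l was 0.02, 0.37, 0.39, -0.07 and -0.27 in KO-labelled tumors, against -0.71, -0.81, -0.94, -0.55 and -1.24 in WT tumors. The groups did not overlap, and the difference was 0.94 (95% interval 0.51 to 1.33, p = 0.00794, adjusted over 8 pairs 0.0317, exact permutation test, two-sided). This is the smallest p that 252 splits of 10 tumors can give. Kdm3a over Kdm4b was 0.97, 0.96, 0.88, 1.15 and 0.88 in KO-labelled tumors, against 0.61, 0.60, 0.74, 0.78 and 0.61 in WT tumors. Here too the groups did not overlap (difference 0.30, 95% interval 0.16 to 0.45, adjusted p = 0.0317, exact permutation test), although neither gene passed the test by itself. With 1 tumor left out, both ratios passed only without WT5 or KO2. The other 8 fits of 9 tumors, in which the smallest p is 0.0159, gave adjusted p-values of 0.0508 to 0.0635 (exact permutation test).

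Car9 over Car12 was higher by 1.09 in KO-labelled tumors (95% interval 0.23 to 1.97) and Bhlhe40 over Bhlhe41 by 0.52 (0.09 to 0.92), and neither passed after adjustment (0.0635 each, exact permutation test). Plod2 over Plod1 differed by 0.16 (0.01 to 0.34, adjusted p = 0.0762) and P4ha1 over P4ha2 by 0.15 (-0.02 to 0.35, adjusted p = 0.116, exact permutation test). The ratio of Stc1 to Stc2 differed by 0.33 with a wide interval (-0.27 to 0.92, adjusted p = 0.263, exact permutation test). Epas1 over Arnt differed by 0.14 (-0.14 to 0.40, adjusted p = 0.302, exact permutation test).

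**Figure D5:**
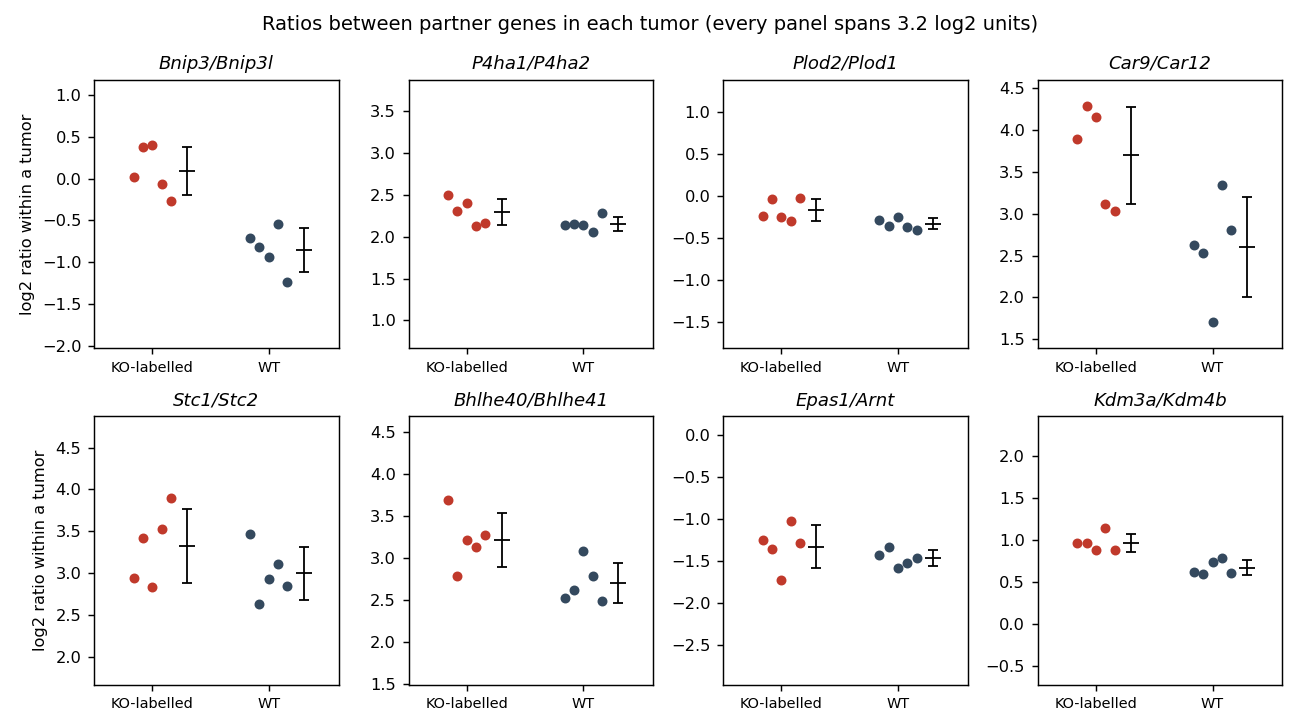
Log2 ratio of the scores of 2 related or partner genes within each tumor, for 8 pairs, in KO-labelled tumors (red, left) and WT tumors (dark, right), with mean and SD (n = 5 each). Every panel spans the same log2 range. The pairs were chosen with earlier results of these data known. Only the panels of Bnip3 over Bnip3l and Kdm3a over Kdm4b show no overlap of the groups.

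In the rest of the oxygen-sensing machinery, outside the 32 genes, 4 of 19 measured genes were higher (21.1%, against 17.5% of all genes) and 2 were lower (10.5%, against 18.2% of all genes), with a median log2 difference of 0.14. The higher genes were Hif1a, Egln1, Tceb1 and Siah2 itself, whose values are given above, and the lower ones were Hif3a and Crebbp. Hif1a, the best known alpha subunit, had 5485, 5138, 5672, 5577 and 5040 in KO-labelled tumors, against 3585, 3663, 4265, 3418 and 3163 in WT tumors. Every KO-labelled tumor was above every WT tumor by a wide margin (log2 difference 0.58 ± 0.08 SE, adjusted p = 0.000210, limma). Hif3a, which encodes an alpha subunit with forms that restrain the others, had 10, 4, 7, 6 and 1 in KO-labelled tumors, against 70, 71, 64, 26 and 32 in WT tumors. It was low in both groups and lower in every KO-labelled tumor (log2 difference -3.11 ± 0.45 SE, adjusted p = 0.000232, limma). Epas1 and Arnt, of the same protein family, did not pass the test.

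Of the hydroxylases, Egln1 (PHD2) had 1747, 1875, 1664, 1524 and 1524 in KO-labelled tumors, against 1421, 1343, 1205, 1522 and 1129 in WT tumors (log2 difference 0.34 ± 0.09 SE, adjusted p = 0.0144, limma). The 2 lowest KO-labelled tumors were only just above WT5. The Siah2 substrates Egln2 and Egln3 differed by 0.23 (adjusted p = 0.124) and -0.11 (adjusted p = 0.578), in transcript only. Tceb1 (elongin C), a partner of Vhl, was higher by 0.40 (adjusted p = 0.0232). The coactivator gene Crebbp fell by 0.69 on the log2 scale (adjusted p = 0.0225). Its relative Ep300 differed by -0.34 (adjusted p = 0.142). Arnt2, Hif1an, Siah1a, Siah1b, Cul2, Rbx1, Tceb2, Cited2, Os9 and Rwdd3 did not pass the test, with differences between -0.09 and 0.21.

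Further HIF targets outside the list also moved. Of 24 such genes, 11 were higher and 3 lower (45.8% and 12.5%, against 17.5% and 18.2% of all genes). Among those with the smallest p were the transcription factor gene Mafk (log2 difference 0.70), Angptl4, an inhibitor of lipoprotein lipase (0.94), and the repressor gene Nfil3 (1.06). In each of them the groups did not overlap. In glycolysis and lactate transport, 14 of 17 genes were higher (82.4%, against 17.5% of all genes) and none was lower, with a median of 0.51. The 4 with the smallest p were Pfkfb3 (1.18), the lactate exporter gene Slc16a3 (1.44), Pgk1 (0.70) and Hk2 (0.96). The share of higher genes was thus lower among the 32 genes, at 40.6%, and this difference in shares was not tested.

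Other genes of collagen modification ran the other way from P4ha1. Of 11 measured, 7 were lower (63.6%, against 18.2% of all genes) and 1 was higher (9.09%, against 17.5%), with a median of -0.38. P4ha3, another catalytic subunit of collagen prolyl 4-hydroxylase, had 161, 138, 149, 157 and 191 in KO-labelled tumors, against 349, 435, 436, 376 and 369 in WT tumors. The groups were far apart (log2 difference -1.30 ± 0.11 SE, limma). The prolyl 3-hydroxylase genes P3h2 and P3h1 fell by 1.47 and 0.46 on the log2 scale, and Crtap, a partner of P3h1, fell by 0.38. Of 13 further mitophagy genes, 2 were higher (15.4%, against 17.5% of all genes) and 4 were lower (30.8%, against 18.2% of all genes), with a median of 0.09. The 4 with the smallest p were Pink1, a kinase that marks damaged mitochondria (-0.62), the cargo receptor gene Sqstm1 (0.52), Map1lc3b (-0.35) and Tbk1 (0.25).

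Markers of the cell types in the tumors were counted as well, beside 17.5% higher and 18.2% lower among all genes. Of 17 fibroblast and matrix markers, 13 were lower (76.5%) and 2 higher (11.8%) in KO-labelled tumors. Their summed score was 94015 to 128264, against 194100 to 222413 in WT tumors. Of 12 measured macrophage markers, 8 were higher (66.7%) and none lower, with sums of 53048 to 85313 against 43898 to 53981 in WT tumors. Of 14 markers of inflammatory macrophages, 12 were higher (85.7%), with sums of 25151 to 48735 against 10602 to 16105 in WT tumors. Of 13 T and NK cell markers, 12 were higher (92.3%), with sums of 7273 to 11401 against 3020 to 3879 in WT tumors. Of 16 endothelial markers, 2 were higher (12.5%) and 5 lower (31.2%), with sums of 7558 to 9784 against 9465 to 10623 in WT tumors. No marker of these 5 lists was listed at 0. The sums follow the genes with the highest scores in each list, so they are not levels of a cell type. Of the 5 melanocyte and melanoma markers above 0, none was higher and 2 were lower (40.0%). Their sums were 1315 to 2157 against 1673 to 2005 in WT tumors. The lower ones, named after their values were seen, were S100b (7, 29, 8, 15 and 3 in KO-labelled tumors, against 63, 116, 78, 71 and 73 in WT tumors, log2 difference -2.90, adjusted p = 0.000290) and Ednrb (-1.45, adjusted p = 0.00422). Mitf, Gpnmb and Kit did not pass the test. Within KO-labelled tumors, the median log2 ratio of the inflammatory macrophage markers to the WT mean was highest in KO3 (1.98) and KO4 (1.75), and that of the 13 higher hypoxia genes in KO2 and KO3. That of the glycolysis genes was highest in KO2 (0.75) and KO3 (0.63). The macrophage markers were highest in KO4 (0.85) and KO3 (0.57), and the T and NK cell markers in KO4 (1.09) and KO1 (0.99). The fibroblast markers lay between -0.85 and -0.59 in all 5 KO-labelled tumors. The part of these cell types in the hypoxia genes was not tested.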

How the data were processed

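RNA was extracted from 10 whole tumors with TRIzol, and poly(A) libraries were made with a directional kit and sequenced as single reads of 75 bases. Per the study's methods and the tools that the submitters list, the authors used FastQC for quality, STAR for alignment to mm10, featureCounts for counting, and edgeR within SARTools for normalization. Versions, gene annotation and strand setting were not given in the sources used here. Each deposited score is this normalized count of a gene, rounded to a whole number, so it is not a raw count and the depth of each library is unknown. The deposited table also holds the authors' own fold changes and tests, which were not used. A count model had no raw counts to work on, so limma 3.58.1 (R 4.3.3) was fitted to log2(score + 1) with moderation along a mean-variance trend. P-values were adjusted by Benjamini and Hochberg over the 12926 genes above 0 in at least 1 column, with a threshold of 0.05. Fold changes refer to log2(score + 1), where the pseudocount of 1 shrinks changes of low genes.

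Groups came from the labels. Titles number the knockout tumors otherwise than the columns do, so KO4 and KO5 were used without a replicate number. Nothing in the labels ties tumors to litters or batches, so p-values measure the spread between these tumors. Samples numbered 2 and 3 in both groups share only a number. Ratios within tumors were tested by an exact permutation test (scipy 1.17.1, two-sided, adjusted over 8 pairs). Gene coordinates are those of GENCODE release M21 for mm10, and promoters those of RefSeq (GRCm38.p6). Figures and tables were made in Python 3.11.15.

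The 32 genes, the pairs and all other lists were chosen with earlier results of these data known. Named are all 32 genes, all oxygen-sensing genes and, of every further pathway list, the 4 genes with the smallest p. One of the genes so chosen is not reported here. The alternatives were a pseudocount of 10, a mean score of at least 50, equal library totals, median-of-ratios scaling, no trend, robust moderation, leaving out each tumor, leaving out KO4 and KO5, and a block on the shared replicate numbers.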

Additional observations from a re-analysis of the deposited data

Results flagged for a closer look

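In 2 of the 80 groups of 5 tumors that were examined, 1 tumor stood apart from the others by Dixon's test, where chance alone would mark about 1 in 20, or 4.0. Bnip3l was highest in KO2, at 1730, against 1282 to 1398 in the other KO-labelled tumors (gap over range 0.741, critical value 0.71). Bhlhe40 was lowest in WT6, at 1158, against 1405 to 1440 in the other WT tumors (gap over range 0.876).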

How the results depend on the processing

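No called difference of the 32 genes changed direction in the 17 fits without a block, and 10 of the 13 higher genes (Bnip3, Ndrg1, Adm, Ero1l, Stc1, Stc2, Hilpda, Fam162a, Ak4 and Rab20) and Narf passed in all 17. Leaving out 1 tumor gave 10 to 14 higher and 1 to 2 lower genes of the 32. Among all genes, these fits gave 1796 to 2529 higher and 1853 to 2653 lower. Equal library totals gave 12 and 3 of the 32, beside 1794 and 2853 of all genes (2259 and 2347 in the main fit). Without KO4 and KO5 there were 16 and 2, beside 2186 and 2263 of all genes. The median difference of the 32 genes was then 0.31 instead of 0.21. Every KO-labelled library had a higher total than every WT library, so equal totals scale KO-labelled scores down against WT scores. This moved the median of all genes by -0.06, and the share of higher among called genes was 38.6% instead of 49.0%. Why the totals differ, and the cause of the shift without KO4 and KO5, were not tested.

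Among the ratios, those of Car9 to Car12 (0.84) and Bhlhe40 to Bhlhe41 (0.50) passed with a pseudocount of 10 (adjusted p = 0.0476 each, exact permutation test). Leaving out 1 tumor gave 0.84 to 1.03 for Bnip3 to Bnip3l, 0.25 to 0.33 for Kdm3a to Kdm4b, 0.87 to 1.28 for Car9 to Car12 and 0.40 to 0.62 for Bhlhe40 to Bhlhe41. With 9 tumors the smallest p is 0.0159, so the first 2 ratios passed in 2 of the 10 fits, without WT5 and without KO2, and not in the other 8 (adjusted p = 0.0423 to 0.0635 over the 10, exact permutation test). Car9 to Car12 passed without WT5 (1.28) and Bhlhe40 to Bhlhe41 without KO2 (0.62). Without KO4 and KO5, the differences of Bnip3 to Bnip3l and Kdm3a to Kdm4b were 1.11 and 0.27 (adjusted p = 0.0714 each, exact permutation test).

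The replicate block could use only the 4 tumors numbered 2 and 3, whose deviations correlated by 0.0349 and 0.0501 between groups. It gave 15 higher and 2 lower genes of the 32, and 1918 higher and 1984 lower of all genes. The same 4 tumors with no block, a fit added after seeing the data, gave 13 and 2, and 1406 and 1532. Jmjd6 (0.49), Bhlhe40 (0.41) and Car12 (-1.57) passed in these 4 tumors both with the block (adjusted p = 0.00694, 0.0180 and 0.0172) and without it (0.0383, 0.0407 and 0.0286). The ratio of Epas1 to Arnt was -0.16 in these tumors, with no test.

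Scores are low for Car12, where a change of a few reads moves the value most, and the depth of each library is unknown. With 5 tumors a group, differences within the intervals given cannot be told from none.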
